A study of Mus musculus with 6 samples.

Results

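The T cell receptor and the molecules that carry its signal inward were examined in 6 mouse leukemia arrays. The set was a list of 42 genes that code for the CD3 and zeta chains, the CD4 and CD8 coreceptors, other surface molecules of T cells, and the kinases, adaptors, enzymes, transcription factors and inhibitors that act just below the receptor. Each gene was represented by the probe set that carried its symbol alone and had the highest mean intensity. Of the 42 genes, 41 were found and 40 of these passed the filter on dim genes, among 13956 genes tested in all. Lck was not named in the annotation used here and was not analysed here. Vav3, an exchange factor, lay below the filter with 5.99, 5.99 and 5.92 log2 intensity in Tamoxifen arrays and 6.02, 5.99 and 5.93 in Vehicle arrays of lines 14843, 14844 and 14846, and was not tested.

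The antigen-binding chains of the T cell receptor have short tails and depend on the CD3 and zeta chains for signalling. Kinases of the Src family phosphorylate these chains, Zap70 binds to them, and Zap70 then phosphorylates the adaptors Lat and Lcp2 (SLP-76). The adaptors gather phospholipase and exchange factors that open the calcium, Ras and NF-kappaB branches, while phosphatases and ubiquitin ligases restrain the signal. In thymocytes the same machinery serves the pre-T cell receptor, and leukemias driven by Notch are made of cells at such immature stages.

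The study set out to learn how deletion of the transcription factor gene Zfx changes gene expression in T cell acute lymphoblastic leukemia (T-ALL) driven by Notch. All groups descended from blood progenitors with a Zfx fl/y allele and a Cre-ER transgene, which had been transduced with a Notch-IC retrovirus, and each of the lines 14843, 14844 and 14846 was 1 primary leukemia. Leukemia cells were passed to sublethally irradiated secondary recipient mice, where they were dosed, and GFP+ cells were recovered by sorting 48 h later. Tamoxifen arrays, labelled ZFX null, came from recipients gavaged with 5 mg of Tamoxifen a day for 3 days from day 10 after transplant. Vehicle arrays, labelled ZFX flox, came from recipients gavaged with Vehicle. Each group held 3 arrays, 1 for each line. The cells received Cre-ER and the loxP-flanked allele in both groups, so the drug, active Cre and loss of Zfx cannot be told apart. The sources used here give neither the promoter that drives Cre-ER nor the age of the mice.

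Over all probe sets the arrays had median intensities between 201.6 and 208.3 and pairwise correlations of log2 values between 0.9905 and 0.9955. The near-equal medians do not show that the arrays were alike, because RMA equalises the arrays. The Zfx probe set measured 10.94 ± 0.06 log2 intensity in Tamoxifen arrays and 10.86 ± 0.14 in Vehicle arrays (SD, n = 3 each), a difference of 0.07 ± 0.06 (SE) with a limma adjusted p of 0.48. The sources used here do not place its probes relative to the deleted part, so it does not check the labels. All 6 T lineage markers named in the annotation (Cd3e, Cd3g, Thy1, Bcl11b, Gata3 and Ptcra) lay above the filter, with summed intensities between 35461 and 41358 in Tamoxifen arrays and between 37628 and 41170 in Vehicle arrays. Of 6 B cell markers, Cd79a, Ms4a1, Ebf1 and Blnk lay below it and Cd79b and Pax5 above it, with Cd79b at 9.56 in the Vehicle array of line 14846 and between 8.01 and 8.66 elsewhere. Of 8 monocyte and macrophage markers, Csf1r, Adgre1, Cd14 and Fcgr1 lay below it and Cd68, Lyz2, C1qa and C1qb above it. No marker of the 6 lists (T lineage, B cell, monocyte and macrophage, neutrophil, NK cell and erythroid) passed the test between treatments.

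Between the treatments 1 of the 40 members tested was called, and the members' median absolute difference was near that of all genes. With 3 arrays per group, a missing call does not show that a gene was unchanged. Only Sos1, which loads Ras with GTP, passed the test, and it was lower in Tamoxifen arrays. Genes were called where a limma fit with line as a block gave an adjusted p (Benjamini-Hochberg over all genes tested) at or under 0.05. The 1 call among 40 members is 2.5%, against 6.23% of all genes tested. In the lower direction it was 1 of 40 against 4.93% of all genes, and in the higher direction 0 of 40 against 1.3% of all genes. At an unadjusted p at or under 0.05, 7 members were lower (17.5%, against 13.3% of all genes) and 0 were higher (against 10.5% of all genes). Arrays of the groups did not overlap for 6 members that were lower (15%, against 11.5% of all genes), namely Sos1, Ptpn6, Ubash3a, Cd2, Cd27 and Csk. They did not overlap for 2 that were higher (5%, against 12.2%), namely Lcp2 and Bcl10. The median log2 difference, Tamoxifen minus Vehicle, was -0.03 over the members and 0.03 over all genes, and the median absolute difference was 0.08 over the members and 0.09 over all genes. The fitted difference was below 0 for 26 members (65.0%, against 41.4% of all genes) and above 0 for 14. These shares carry no test. The balance of signs depends on which scaling is used, for the members and for all genes. It was 28 below 0 and 12 above 0 with arrays centred on the median of all probe sets. There 46.0% of all genes were below 0. With repeated quantile normalization it stayed at 26 and 14, against 39.8% of all genes below 0. With arrays centred on the median of the tested genes, 16 were below 0 and 24 above 0, against 26.9% of all genes below 0. There the members' median was 0.03 and the median of all genes was 0.08. In that setting, chosen after seeing the data, 562 genes were lower and 412 higher, against 688 lower and 182 higher without it. Only 14 of the 40 members (35%) kept 1 sign in all 3 lines, against 48.8% of all genes. These are bulk samples, in which fewer cells that express a gene and less RNA per cell cannot be told apart.

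**Figure D1:**
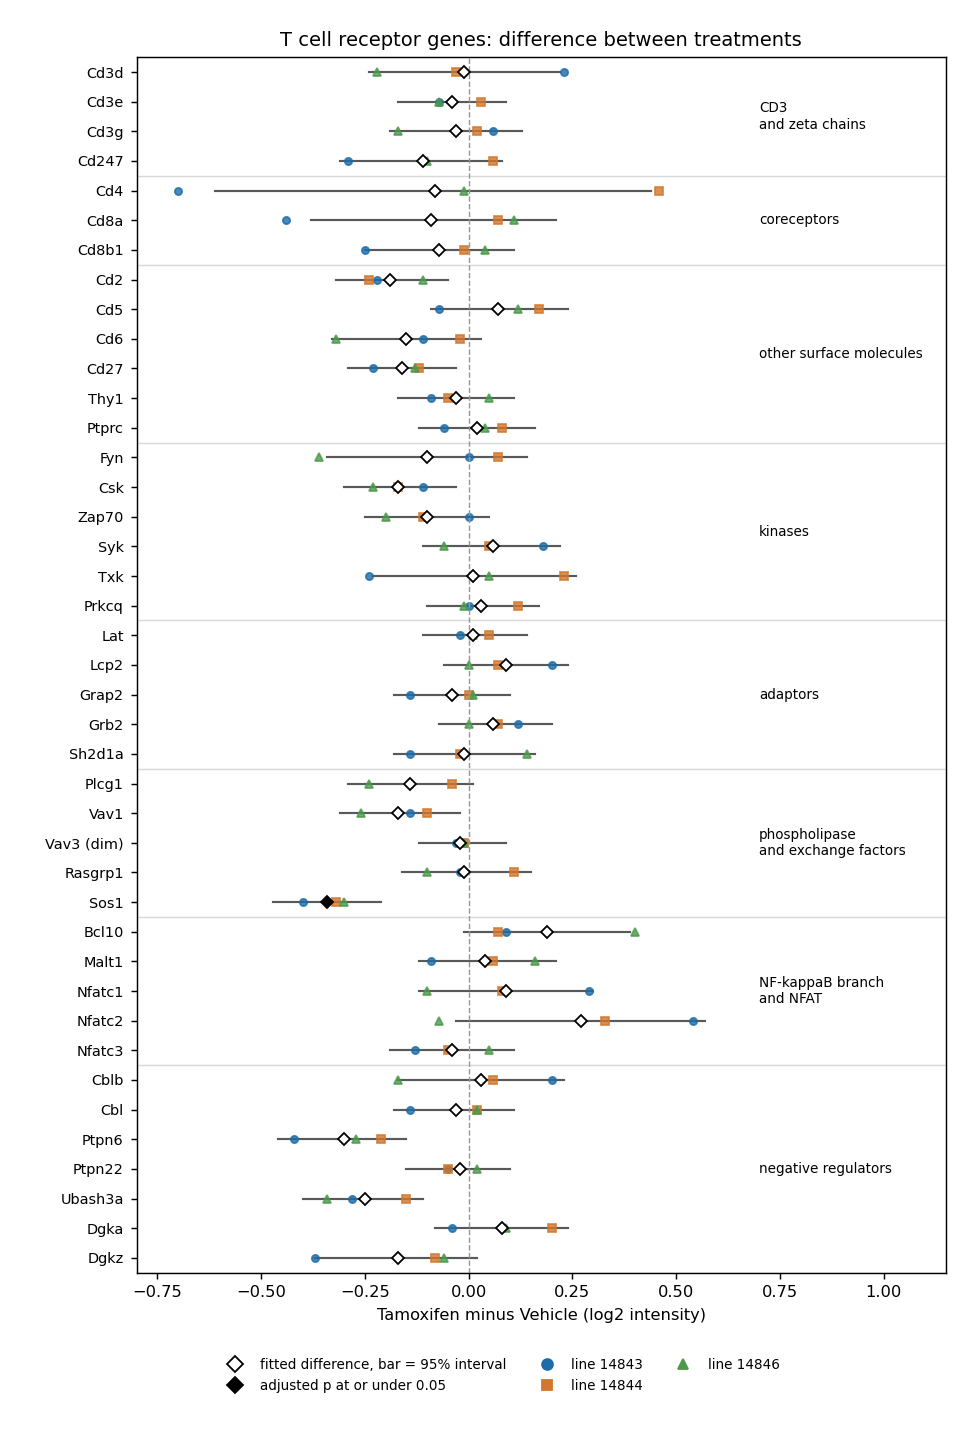
Difference between treatments for the 41 genes found, on the x axis as Tamoxifen minus Vehicle in log2 intensity, with genes grouped by role down the y axis. Diamonds are fitted differences with 95% intervals, coloured symbols are the differences within each line, and the filled diamond marks Sos1 at -0.34, the member with an adjusted p at or under 0.05.

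The signalling chains of the receptor complex showed no call. Their 4 genes had fitted differences between -0.11 and -0.01, and the 95% intervals of all 4 together ran from -0.31 to 0.22. Cd247, the zeta chain, differed most. It measured 11.10, 11.17 and 11.07 log2 intensity in Tamoxifen arrays of lines 14843, 14844 and 14846, against 11.40, 11.11 and 11.17 in Vehicle arrays. The groups overlapped, and the Vehicle array of line 14843 stood above the rest. The difference was -0.11 ± 0.08 (SE), adjusted p = 0.42. Cd3d, the CD3 delta chain, measured 12.22, 11.94 and 11.66 in Tamoxifen arrays against 11.99, 11.97 and 11.88 in Vehicle arrays in the same order of lines. Its Tamoxifen arrays held both the highest and the lowest value, so the lines moved apart, and the fitted difference was -0.01 ± 0.09 (adjusted p = 0.97). Cd3e and Cd3g, the epsilon and gamma chains, had differences of -0.04 ± 0.05 and -0.03 ± 0.06. Cd3g, Cd3d and Cd3e are direct neighbours on mouse chromosome 9, with 0 protein-coding genes between them in the RefSeq gene table. The signs of Cd3d, Cd3e and Cd3g turned to 0.05, 0.02 and 0.03 with arrays centred on the median of the tested genes.

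The coreceptors, which bind MHC molecules and bring a Src family kinase to the receptor, had no call and differed in direction between lines. Cd4 measured 11.27, 11.15 and 10.53 in Tamoxifen arrays of lines 14843, 14844 and 14846, against 11.98, 10.69 and 10.54 in Vehicle arrays. The difference within lines was -0.70 in line 14843, 0.46 in line 14844 and -0.01 in line 14846. The fitted difference was -0.08 ± 0.21 with an interval from -0.61 to 0.44 (adjusted p = 0.84), the widest interval among the members. Cd8a measured 12.45, 12.62 and 12.70 in Tamoxifen arrays, against 12.89, 12.55 and 12.59 in Vehicle arrays. Only in line 14843 was it lower in the Tamoxifen array, and the fitted difference was -0.09 ± 0.12 (adjusted p = 0.68). Cd8b1, which codes for the beta chain paired with Cd8a and is its direct neighbour on chromosome 6, had a difference of -0.07 ± 0.07 (adjusted p = 0.58), with -0.25 in line 14843 and -0.01 and 0.04 in lines 14844 and 14846. Without line 14843 the differences were 0.23 for Cd4, 0.09 for Cd8a and 0.01 for Cd8b1, so the direction of all 3 coreceptors rested on that line.

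Of the 6 other surface molecules none was called, although Cd2 and Cd27 were at an unadjusted p at or under 0.05. Cd2, an adhesion and costimulatory receptor, measured 11.96, 11.81 and 11.95 in Tamoxifen arrays and 12.18, 12.05 and 12.05 in Vehicle arrays. Each Tamoxifen value lay below each Vehicle value, and the difference was -0.19 ± 0.05 (SE), adjusted p = 0.12. Cd27, a costimulatory receptor of the TNF receptor family, measured 12.47, 12.42 and 12.41 in Tamoxifen arrays against 12.69, 12.54 and 12.54 in Vehicle arrays, a difference of -0.16 ± 0.05 (adjusted p = 0.15). Its groups did not overlap either. Cd5, an inhibitory surface receptor whose level in thymocytes follows receptor signal strength, measured 11.69, 11.45 and 11.40 in Tamoxifen arrays against 11.76, 11.27 and 11.28 in Vehicle arrays. It was lower in line 14843 and higher in the other lines, for a difference of 0.07 ± 0.07 (adjusted p = 0.53). Cd6, its relative and direct neighbour on chromosome 19, measured 10.71, 10.43 and 10.54 against 10.83, 10.45 and 10.86 in Vehicle arrays, for a difference of -0.15 ± 0.07 (adjusted p = 0.28). Thy1, the pan-T cell marker, and Ptprc, the CD45 phosphatase, had differences of -0.03 ± 0.05 and 0.02 ± 0.05.

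Among the 6 kinases tested, 0 were called and 1, Csk, was at an unadjusted p at or under 0.05. Csk, which phosphorylates the inhibitory tail of Src family kinases, measured 11.86, 11.72 and 11.72 in Tamoxifen arrays against 11.96, 11.89 and 11.95 in Vehicle arrays. The groups did not overlap, and the difference was -0.17 ± 0.05 (adjusted p = 0.14). Txk, a Tec family kinase, measured 10.50, 10.19 and 10.22 in Tamoxifen arrays against 10.75, 9.95 and 10.17 in Vehicle arrays. It was lower in line 14843 and higher in line 14844, like Cd4, and the difference was 0.01 ± 0.10 (adjusted p = 0.95). Zap70, the kinase that binds the phosphorylated chains, measured 11.39, 11.25 and 11.26 against 11.39, 11.35 and 11.46 in Vehicle arrays, for a difference of -0.10 ± 0.06 (adjusted p = 0.35). Its relative Syk, which serves the pre-T cell receptor as well as the B cell receptor, had a difference of 0.06 ± 0.07. Fyn, a Src family kinase, had -0.10 ± 0.09, with -0.36 in line 14846 and 0.00 and 0.07 in lines 14843 and 14844. Prkcq, the protein kinase C of the T cell synapse, had 0.03 ± 0.05.

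None of the 5 adaptors was called, with fitted differences between -0.04 and 0.09 and 95% intervals that together ran from -0.18 to 0.24. Lcp2, the scaffold SLP-76, measured 12.72, 12.59 and 12.59 in Tamoxifen arrays against 12.52, 12.52 and 12.58 in Vehicle arrays. All Tamoxifen values lay above the Vehicle values, but the lowest Tamoxifen array and the highest Vehicle array, at 12.59 and 12.58, were nearly equal, and the difference was 0.09 ± 0.06 (adjusted p = 0.40). Sh2d1a, the adaptor SAP of SLAM family receptors, measured 12.42, 12.27 and 12.58 in Tamoxifen arrays against 12.55, 12.30 and 12.44 in Vehicle arrays, a difference of -0.01 ± 0.07 (adjusted p = 0.96). Lat, the membrane scaffold, had a difference of 0.01 ± 0.05, Grap2 (Gads) had -0.04 ± 0.06, and Grb2, which carries Sos proteins to the membrane, had 0.06 ± 0.05.

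Sos1 was the member that changed. It measured 9.68, 9.73 and 9.59 log2 intensity in Tamoxifen arrays of lines 14843, 14844 and 14846, against 10.08, 10.05 and 9.90 in Vehicle arrays. Every Tamoxifen array lay below every Vehicle array. The means were 9.67 ± 0.07 and 10.01 ± 0.10 (SD, n = 3 each), a fitted difference of -0.34 ± 0.05 (SE) with an interval from -0.47 to -0.21, which is 1.27-fold lower in Tamoxifen arrays. The limma adjusted p was 0.026, and the differences within lines were -0.40, -0.32 and -0.30. The call was lost without line as a block (adjusted p = 0.074) and in each of the 3 fits that left out 1 line (adjusted p between 0.052 and 0.15), where the difference stayed between -0.36 and -0.31.

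Sos2, the second Ras exchange factor of the family and a gene of the wider pathway list, fell further. It measured 9.80, 10.14 and 10.19 in Tamoxifen arrays against 10.71, 10.67 and 10.76 in Vehicle arrays. The groups stood well apart, and the Tamoxifen array of line 14843 was the lowest. The difference was -0.67 ± 0.09 (SE), 1.59-fold lower, with an adjusted p of 0.019. It kept the call without the block (adjusted p = 0.042) and lost it without line 14844 (adjusted p = 0.092).

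The promoters of Sos1, Sos2 and Ptpn6 are shown because Sos1 and Sos2 were the exchange factors that fell and Ptpn6, the phosphatase SHP-1, was the member nearest the threshold without passing it. They were chosen after their values were seen. The sequences are the 250 bases before the RefSeq gene start in build GRCm38.p6, all on the minus strand, at chr17:80480454-80480703 for Sos1, chr12:69681853-69682102 for Sos2 and chr6:124738710-124738959 for Ptpn6. Capitals mark AGGCCT, the letters at the core of motifs reported for Zfx, which read the same on both strands.
Sos1: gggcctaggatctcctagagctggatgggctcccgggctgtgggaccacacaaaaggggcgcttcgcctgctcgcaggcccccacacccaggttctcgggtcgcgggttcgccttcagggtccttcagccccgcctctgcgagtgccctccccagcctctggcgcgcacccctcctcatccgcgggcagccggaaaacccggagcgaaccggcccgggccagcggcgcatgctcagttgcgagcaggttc
Sos2: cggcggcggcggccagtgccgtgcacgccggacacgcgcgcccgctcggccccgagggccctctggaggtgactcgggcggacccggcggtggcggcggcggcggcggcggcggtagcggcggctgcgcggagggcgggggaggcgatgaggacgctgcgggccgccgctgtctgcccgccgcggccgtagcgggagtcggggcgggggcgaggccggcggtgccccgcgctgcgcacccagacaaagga
Ptpn6: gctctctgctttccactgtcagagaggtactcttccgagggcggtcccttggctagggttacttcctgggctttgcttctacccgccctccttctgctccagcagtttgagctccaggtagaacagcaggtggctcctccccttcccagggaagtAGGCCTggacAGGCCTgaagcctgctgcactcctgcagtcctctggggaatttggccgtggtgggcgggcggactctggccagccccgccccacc
Ptpn6 holds 2 matches, and the windows of Sos1 and Sos2 hold 0. The letters occur in 8.7% of 32851 promoter windows of the same length, in a window of 11.1% of 11031 tested genes and in a window of 13.0% of 568 genes that were lower in Tamoxifen arrays. Among 32 tested members with a window, 6 had a match (18.8%), namely Ptpn6, Cd5, Csk, Dgkz, Lat and Txk. A match describes the letters only. The Sos1 and Sos2 windows are rich in G and C, at 70.4% and 82.8%, against 63.2% for Ptpn6.

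The remaining phospholipase and exchange factor genes did not pass. Vav1, an exchange factor for Rac, measured 11.43, 11.25 and 11.39 in Tamoxifen arrays and 11.57, 11.36 and 11.65 in Vehicle arrays and was lower in each line, with a fitted difference of -0.17 ± 0.06 (adjusted p = 0.16). Plcg1, the phospholipase that makes the calcium and diacylglycerol messengers, measured 11.23, 11.02 and 11.16 against 11.38, 11.06 and 11.41 in Vehicle arrays, a difference of -0.14 ± 0.06 (adjusted p = 0.23). Rasgrp1, the Ras exchange factor activated by diacylglycerol, had a difference of -0.01 ± 0.06 (adjusted p = 0.96), with an interval from -0.16 to 0.15.

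**Figure D2:**
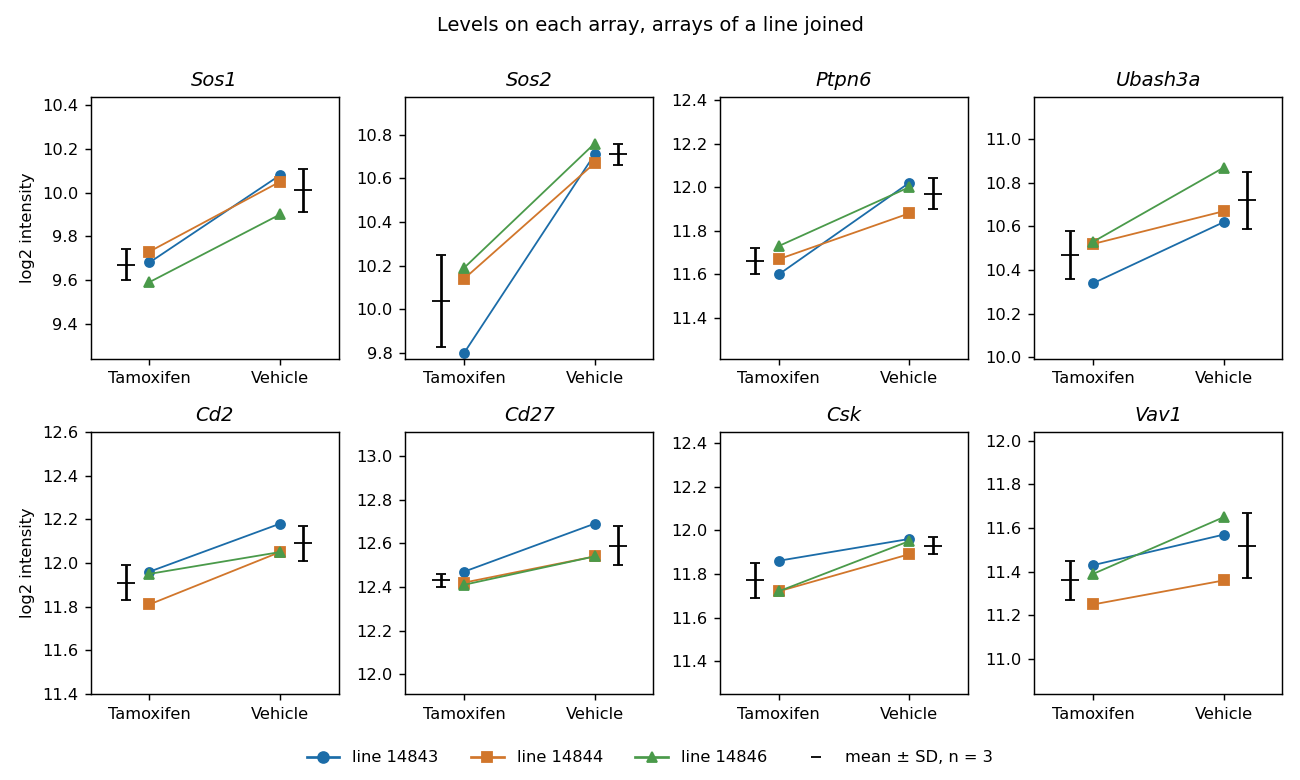
Log2 intensity on each array for 8 genes, with Tamoxifen on the left and Vehicle on the right of each panel and lines joining the arrays of a leukemia line; bars beside the points are the mean ± SD of 3 arrays. Each panel spans the same log2 range but has its own level; Sos1 and Sos2 passed the test and the other 6 did not, Ptpn6 coming nearest with an adjusted p of 0.055.

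None of the 5 genes of the NF-kappaB branch and NFAT passed. Nfatc2, a transcription factor released by calcineurin, differed most, with 8.95, 8.56 and 9.42 in Tamoxifen arrays against 8.40, 8.23 and 9.49 in Vehicle arrays. It was higher in lines 14843 and 14844 by 0.54 and 0.33 and was -0.07 in line 14846, and the fitted difference was 0.27 ± 0.12 (adjusted p = 0.24). Bcl10, an adaptor that binds Malt1, measured 11.13, 11.06 and 11.30 in Tamoxifen arrays against 11.03, 10.99 and 10.90 in Vehicle arrays. Its groups did not overlap, and the fitted difference was 0.19 ± 0.08 (adjusted p = 0.23). Line 14846 held most of it, with a difference of 0.40 against 0.09 and 0.07 in lines 14843 and 14844. Malt1, a paracaspase, had a difference of 0.04 ± 0.07, Nfatc1 had 0.09 ± 0.08 and Nfatc3 had -0.04 ± 0.06.

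Of the 7 negative regulators, Ptpn6 and Ubash3a came near the threshold and none passed. Ptpn6, the phosphatase SHP-1, measured 11.60, 11.67 and 11.73 in Tamoxifen arrays against 12.02, 11.88 and 12.00 in Vehicle arrays. The groups did not overlap, the difference was -0.30 ± 0.06 (SE), and the adjusted p was 0.055. Among 8 other settings it passed in 3, with adjusted p between 0.035 and 0.081 over the 8. Ubash3a (STS-2), which restrains the signal of Zap70, measured 10.34, 10.52 and 10.53 in Tamoxifen arrays against 10.62, 10.67 and 10.87 in Vehicle arrays. Its groups did not overlap, and the difference was -0.25 ± 0.06 (adjusted p = 0.072).

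The other 5 negative regulators stayed further from the threshold. Ptpn22, a phosphatase of Src family kinases and Zap70, measured 12.48, 11.96 and 12.25 in Tamoxifen arrays against 12.53, 12.01 and 12.23 in Vehicle arrays, a difference of -0.02 ± 0.05 (adjusted p = 0.79). The ubiquitin ligases Cbl and Cblb had differences of -0.03 ± 0.06 and 0.03 ± 0.08. The diacylglycerol kinases Dgka and Dgkz, which remove the messenger that activates Rasgrp1, had 0.08 ± 0.06 and -0.17 ± 0.08 (adjusted p = 0.48 and 0.25). A second Dgkz probe set, dimmer at a mean of 8.12, had 0.05, so the probe sets of that gene differed in sign.

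Beyond the members, 98 of 113 other listed genes of the pathway were tested. Of these 98, 5 were lower and 2 higher in Tamoxifen arrays, against 4.93% and 1.3% of all genes. The counts lie near those shares, so the calls below describe single genes and not the pathway or its lists. Sos2 and Mapk9 (JNK2) fell in the list of Ras and MAP kinase genes, 2 of 11 tested. Mapk9 averaged 10.41 ± 0.16 log2 intensity in Tamoxifen arrays and 10.83 ± 0.11 in Vehicle arrays (SD, n = 3 each), a difference of -0.42 ± 0.06 (SE, adjusted p = 0.026). Stim1, the calcium sensor of the endoplasmic reticulum, fell as 1 of 11 calcium and calcineurin genes, with 9.74 ± 0.12 and 10.18 ± 0.20, a difference of -0.45 ± 0.07 (adjusted p = 0.025). Ptpn11 (SHP-2) fell as 1 of 7 phosphatases and ubiquitin ligases, with 10.67 ± 0.01 and 11.03 ± 0.05, a difference of -0.36 ± 0.05 (adjusted p = 0.023). Akt1, a kinase downstream of PI3 kinase, fell as 1 of 13 genes of the PI3 kinase and actin list, with 11.54 ± 0.10 and 11.88 ± 0.12, a difference of -0.34 ± 0.06 (adjusted p = 0.029).

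Tec and Rel were the genes of this wider list that rose. Tec, a kinase related to Txk, rose as 1 of 22 other proximal genes, with 8.40 ± 0.29 in Tamoxifen arrays and 8.07 ± 0.35 in Vehicle arrays, a difference of 0.33 ± 0.06 (adjusted p = 0.048). Rel, a transcription factor of the NF-kappaB family, rose as 1 of 12 genes of that list, with 10.13 ± 0.24 and 9.76 ± 0.30, a difference of 0.37 ± 0.05 (adjusted p = 0.023). Their groups' spreads are wide because the lines differ, and both lost the call without line as a block, at adjusted p of 0.51 for Tec and 0.38 for Rel. Without the block Stim1, Mapk9 and Akt1 also lost it, at 0.12, 0.10 and 0.11, while Ptpn11 kept it at 0.029. Without line 14844 none of the 7 passed. The lists of the pre-T cell receptor and recombination genes, of costimulatory and inhibitory receptors and of activation readout genes had 0 calls among 4, 12 and 6 tested. Their smallest adjusted p were those of the recombinase gene Rag2, at -0.75 ± 0.16 (0.057), the inhibitory receptor Pdcd1, at -0.34 ± 0.09 (0.088), and the early response gene Egr1, at 0.42 ± 0.11 (0.10).

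The leukemia lines differed from each other in a few members, those named in the next sentence. A moderated F test across the lines called 3 of 40 members (7.5%), Malt1, Nfatc2 and Ptpn22, against 3.11% of all genes. At an unadjusted p at or under 0.05 it found 12 of 40 members, against 19.3% of all genes. The range of the 3 line means, each from 2 arrays of separate recipients, had a median of 0.19 log2 over the members and 0.14 over all genes. It ran from 0.06 for Lcp2 to 1.09 for Cd4.

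Malt1 was high in line 14843. It measured 9.63 in the Tamoxifen array and 9.72 in the Vehicle array of line 14843, 9.13 and 9.07 in line 14844, and 9.21 and 9.05 in line 14846. Both arrays of line 14843 stood above the other 4, which overlapped, and the range was 0.57, a 1.48-fold difference (F test adjusted p = 0.038). The contrast of line 14846 minus line 14843 was -0.54 ± 0.08 (SE, adjusted p = 0.031), and that of line 14844 minus line 14843 was -0.57 ± 0.08 (adjusted p = 0.055).

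Nfatc2 was high in line 14846. It measured 9.42 in the Tamoxifen array and 9.49 in the Vehicle array of line 14846, 8.95 and 8.40 in line 14843, and 8.56 and 8.23 in line 14844. Line 14846 stood apart while the arrays of lines 14843 and 14844 overlapped, and the range was 1.06, a 2.09-fold difference (F test adjusted p = 0.044). The contrast of line 14846 minus line 14844 was 1.06 ± 0.15 (adjusted p = 0.036). That of line 14846 minus line 14843 was 0.78 ± 0.15 (adjusted p = 0.056).

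Ptpn22 separated all 3 lines, with line means of 12.51 in line 14843, 12.24 in line 14846 and 11.98 in line 14844, each from arrays that differed by 0.05 or less. The range was 0.52 (1.44-fold, F test adjusted p = 0.032), and line 14844 minus line 14843 was -0.52 ± 0.06 (adjusted p = 0.032). The steps between neighbouring lines in that order did not pass, at adjusted p of 0.092 and 0.15. Syk was highest in line 14846 and lowest in line 14843. The Tamoxifen and Vehicle arrays read 8.57 and 8.64 in line 14846, 8.38 and 8.33 in line 14844, and 8.20 and 8.02 in line 14843. Its F test adjusted p was 0.074, while the contrast of line 14846 minus line 14843 was 0.50 ± 0.08 (adjusted p = 0.039).

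Counted by contrast, line 14844 minus line 14843 called 1 of 40 members (Ptpn22), against 0.996% of all genes. Line 14846 minus line 14843 called 2 (Syk and Malt1), against 3.67%. Line 14846 minus line 14844 called 1 (Nfatc2), against 1.73%. These contrasts share arrays.

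**Figure D3:**
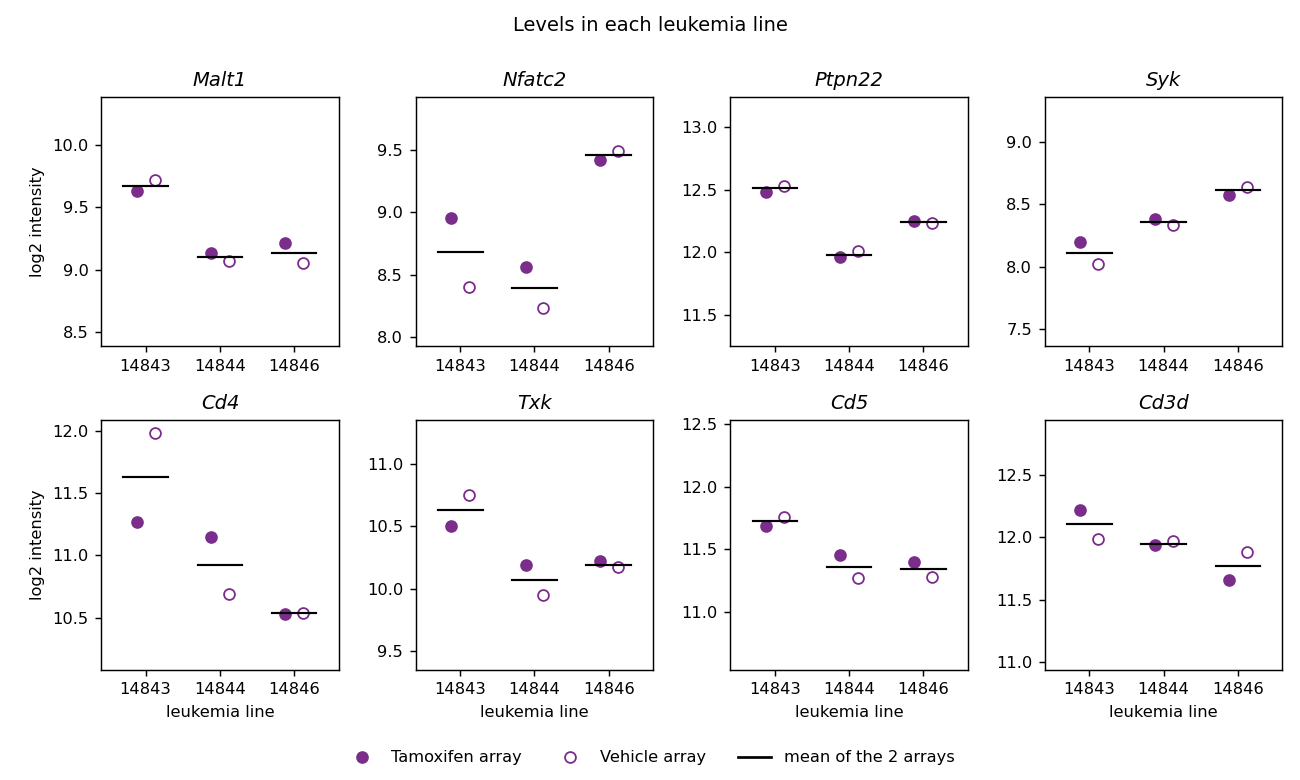
Log2 intensity of 8 members in each leukemia line, with the Tamoxifen array as a filled circle, the Vehicle array as an open circle and the mean of the 2 arrays as a bar. Malt1, Nfatc2 and Ptpn22 passed the F test between lines; Cd4 had the widest range of line means, 1.09, with arrays of line 14843 that were 0.70 apart.

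Cd4 had the widest range of line means without passing the test. Its means were 11.63 ± 0.50 in line 14843, 10.92 ± 0.33 in line 14844 and 10.54 ± 0.01 in line 14846 (SD, 2 arrays each), a 2.13-fold range with an F test adjusted p of 0.16. The arrays of line 14843 were 0.70 apart, and line 14844 minus line 14843 was -0.71 ± 0.26 (SE). In the 6 fits that left out 1 array the range was highest, at 1.55, without the Tamoxifen array of line 14843 and lowest, at 0.63, without its Vehicle array. The F test passed in 1 of the 6, the fit without that Tamoxifen array (adjusted p = 0.014), and the highest adjusted p was 0.29. The partner coreceptor Cd8a had a range of only 0.08 (F test adjusted p = 0.91). The range was 0.56 for Txk (adjusted p = 0.13), 0.39 for Cd5 (0.10), 0.36 for Cblb (0.18) and 0.34 for Cd3d (0.29).

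Across the members, line 14843 had the highest level most often, while the lowest lay mostly in either of the other lines. The highest line mean was that of line 14843 for 27 of 40 members (67.5%, against 39.0% of all genes), including all 6 other surface molecules and all 3 coreceptors. The lowest was that of line 14844 for 21 (52.5%, against 29.1% of all genes) and that of line 14846 for 17 (42.5%, against 34.7%). All 4 CD3 and zeta chain genes were lowest in line 14846. Many of these steps are small, with a median range of 0.16 in the CD3 and zeta chains, 0.14 in the adaptors and 0.26 in the kinases. Genes measured on the same arrays are not independent, and these shares carry no test.

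**Figure D4:**
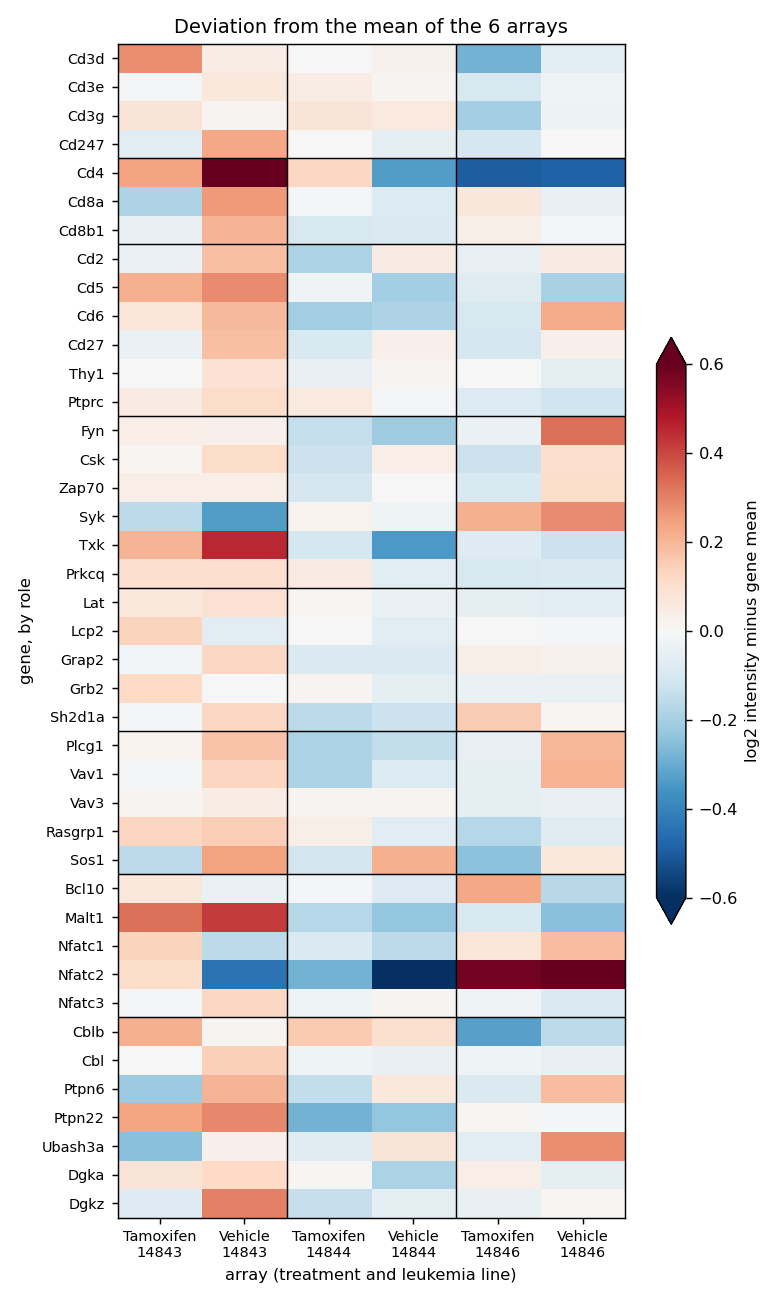
Deviation of each array from the gene's mean over the 6 arrays, in log2 intensity, for the 41 genes found, with genes by role down the y axis and arrays in pairs by line along the x axis, Tamoxifen left of Vehicle. The colour scale ends at 0.6 in size in either direction; Cd4 is high in the Vehicle array of line 14843, Nfatc2 is high in both arrays of line 14846, and Sos1 is lower in the Tamoxifen array of every pair.

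Markers of other cells also differed between lines. The summed intensity of the 8 neutrophil markers, of which 7 lay above the filter and Ly6g below it, was 3181 and 2364 in the Tamoxifen and Vehicle arrays of line 14844, and between 1378 and 1586 in the other 4 arrays. S100a8 and Ngp passed the F test. Of 7 NK cell markers 4 lay above the filter, and 2 of them, Klrb1c and Nkg7, were high in line 14846, where Klrb1c measured 10.29 and 10.45 in the Tamoxifen and Vehicle arrays against 7.90 and 7.37 in line 14844 and 7.48 and 6.60 in line 14843. Gzma and Prf1, the other NK cell markers above the filter, did not pass the F test (adjusted p = 0.41 and 0.46). Gzma was bright on all arrays, between 12.01 and 12.73, and Prf1 had its highest line mean, 9.13, in line 14843. The NK cell genes Ncr1, Klrd1 and Eomes lay below the filter. Lyz2, a monocyte and macrophage gene, and Gata3, a T lineage gene, also passed the F test. The part of these markers in the differences of Malt1, Nfatc2, Ptpn22 and Syk between lines was not tested.

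The calls between lines did not hold in every fit that left out 1 array, which leaves 1 array in a line. The count over all genes moved in such fits too. Malt1, Nfatc2 and Ptpn22 each lost the call in some of them. Their ranges stayed between 0.47 and 0.67, 0.81 and 1.32, and 0.51 and 0.54. Of the 98 other pathway genes, 6 differed between lines by the F test, against 3.11% of all genes, namely Tec, Rel, Ctla4, Ptprj, Ppp3ca and Tnfaip3. The widest ranges among these were 1.35 for Ptprj, a receptor phosphatase, and 1.02 for Ctla4, an inhibitory receptor (F test adjusted p = 0.0059 and 0.0049).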

How the data were processed

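Total RNA of sorted leukemia cells was extracted with Trizol and 200 ng was labelled with biotin, per the labels' protocols. The submitters' processing notes name RMA and Affymetrix Expression Console 1.1, and the deposited values are linear probe set intensities. RMA equalises the arrays, so overall shifts in signal cannot be seen. Precision is limited by the number of arrays. The sources used here name no genome build for the array.

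Of 35556 probe sets, 21789 had 1 gene symbol, which gave 19938 genes by the probe set of highest mean. Log2 was taken of the deposited intensities, and the 13956 genes at or above the 30th percentile (6.70) were tested with limma 3.58.1 in R 4.3.3, with line and treatment as terms, two-sided, with Benjamini-Hochberg adjustment over all of them. Each gene had 2 residual degrees of freedom and the moderation added 3.47. Line was a block because each leukemia went to recipients of both treatments, and deviations of same-line arrays correlated at 0.637, 0.682 and 0.676. Lines were compared by the moderated F test and 3 contrasts in that fit. The labels do not say how many recipients each array pooled, and p-values measure the spread between these arrays. The procedure was tested on simulated data.

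Members and lists were chosen with earlier results of these data known. Array values are given for members called in either comparison and, per role, for those with the largest treatment difference and the widest range of line means; Cd2, Cd27, Cd6, Zap70, Vav1, Bcl10, Ubash3a, Syk, Sos2 and Vav3 were added after their values were seen. Of each pathway list, called genes were named, or else the one with the smallest p. Settings varied were the block, the filter, array centring, repeated quantile normalization, the moderation, the probe set rule and the lines or arrays left out. Promoter sequences come from RefSeq (GRCm38.p6).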

Additional observations from a re-analysis of the deposited data

Results flagged for a closer look

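Cd4 moved in opposite directions in 2 of the 3 lines. The Tamoxifen minus Vehicle difference was -0.70 on the log2 scale in line 14843 and 0.46 in line 14844, and it was -0.01 in line 14846. Among the members only Cd4 moved by at least 0.3 in opposite directions in different lines, a size chosen after seeing the data. Each difference rests on 1 array per treatment, so the difference between the lines was not tested. Groups held 3 arrays, too few for a test of single outlying arrays.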

How the results depend on the processing

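The count of members changed between treatments, 1 in the analysis as reported, was 0 with no replicate block, 2 with a filter at the 50th percentile, 2 with arrays centred on the median of all probe sets and 2 with trend and robust moderation, where Ptpn6 joined Sos1. It was 0 in each fit without 1 line (4, 3 and 5 of 40 members at an unadjusted p at or under 0.05 without lines 14843, 14844 and 14846, beside 2603, 2238 and 3028 of 13956 genes). Over all genes, 870 calls became 295 with no replicate block and 70 to 669 without 1 line, and the 7 pathway calls became 2 with no replicate block, 12 with arrays centred on the median of tested genes and 0 to 8 without 1 line. The line F test called 434 genes, 674 with that centring and 108 to 686 without 1 array. It called 3 members, and 0 to 4 without 1 array. Nfatc2 lost its call with no filter on dim genes (adjusted p = 0.063). Of the single-gene treatment differences under settings that left out no array, 353 kept direction and side of the threshold, 8 lost the call, 3 gained it and 12 turned sign, all 12 near 0. Txk came to -0.00093 and Lat to -0.0026 with arrays centred on the median. With centring on tested genes, chosen after seeing the data, Cd3d, Sh2d1a and Rasgrp1 came to 0.05, Cd3g, Thy1, Cbl and Ptpn22 to 0.03, and Cd3e, Grap2 and Nfatc3 to 0.02. Without 1 line, the difference ran from -0.12 to 0.10 for Cd3d, -0.07 to 0.04 for Cd3g, -0.36 to 0.23 for Cd4, -0.19 to 0.09 for Cd8a, -0.13 to 0.01 for Cd8b1, -0.01 to 0.06 for Ptprc and for Prkcq, -0.18 to 0.04 for Fyn, -0.01 to 0.12 for Syk, -0.10 to 0.14 for Txk, -0.01 to 0.03 for Lat, -0.07 to 0.0027 for Grap2, -0.08 to 0.06 for Sh2d1a, -0.06 to 0.04 for Rasgrp1, -0.02 to 0.11 for Malt1, -0.01 to 0.18 for Nfatc1, -0.09 to 0.0034 for Nfatc3, -0.06 to 0.13 for Cblb and -0.06 to 0.02 for Cbl. Fits with fewer arrays have fewer residual degrees of freedom. The cause of the other shifts was not tested.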
